A study of Psammomys obesus with 8 samples.

Results

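The 5481 contigs that drew the most reads of captured methylated DNA, 1% of the 548060 contigs in the table, are described here. Each library's counts were divided by the library's total, the shares were averaged over 8 libraries, and the contigs with the highest mean share were kept. They are called members below. The DNA was that of male fat sand rats (*Psammomys obesus*), desert gerbils used in research on diet-induced obesity, taken from the hypothalamus at 16 weeks after birth. There were 4 libraries named standard-low, labelled with a standard lipid diet, and 4 named low-low, labelled with a low lipid diet. The series concerns offspring whose fathers had different diets, and its title speaks of parental diet. The labels do not spell out what the second word of each group name stands for. They name no strain, no allele and no agent, and they give replicate numbers without naming animals or litters. The p-values below therefore reflect spread among these libraries, part of which may be technical. Those of edgeR rest mostly on spread pooled over contigs of like abundance.

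Methylation of cytosine in CpG dinucleotides is the main form of DNA methylation in mammals, and most CpG sites outside CpG islands and active promoters are methylated. MethylMiner enrichment uses the methyl-CpG binding domain of MBD2 to pull down double-stranded fragments, and a fragment with several methylated CpG sites is held more firmly than a fragment with few. A contig therefore collects reads according to its length, its CpG sites, how many of them are methylated, and how many copies of the sequence the genome holds. No input library was used here, so these contributions cannot be told apart.

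Totals over the contigs ranged from 11646180 to 12156525 counts in standard-low libraries and from 12528388 to 13533441 in low-low libraries. The members held mean counts of 86.1 to 1107 per library, with a median of 104, against 77.1 in the next 1% of contigs by rank and 17.4 over all contigs. These levels chose the members and are given as a description. At the median member, counting error alone amounts to a coefficient of variation (SD over mean) of 9.82%. Several libraries stood apart. Standard-low 2 held fewer counts in GC-rich members, standard-low 4 held more in members matched to the mitochondrial genome and in some unmatched ones, and low-low 4 held fewer in a small CpG-dense set, so values are given with and without these libraries where a statement rests on them. Tissue of origin could not be checked, because captured DNA shows no expression.

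The sequences below show the kinds of DNA that reached the top of the ranking. They were read from the deposited contigs, and capitals mark CpG dinucleotides. The first is the highest member of all, a 100-base tandem repeat with a period of 37 bases. The next pair are the highest members of a second repeat family, described below, whose longer contigs repeat at 127 bases. The last 4 are the most CpG-dense 150-base windows of long members matched to mouse Vps52, Lrp1, Fasn and mt-Co1.
37-base repeat, contig 1472923: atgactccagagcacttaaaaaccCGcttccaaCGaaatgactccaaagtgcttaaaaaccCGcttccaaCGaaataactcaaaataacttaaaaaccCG
127-base family, contig 2764716: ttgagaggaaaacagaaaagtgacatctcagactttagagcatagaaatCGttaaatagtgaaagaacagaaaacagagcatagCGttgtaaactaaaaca
127-base family, contig 3555381: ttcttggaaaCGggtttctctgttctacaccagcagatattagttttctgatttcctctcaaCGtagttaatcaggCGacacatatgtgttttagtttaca
Vps52, contig 3174951: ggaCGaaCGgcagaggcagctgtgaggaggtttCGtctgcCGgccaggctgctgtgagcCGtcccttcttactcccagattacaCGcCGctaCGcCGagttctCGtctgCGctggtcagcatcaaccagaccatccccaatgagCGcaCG
Lrp1, contig 3429685: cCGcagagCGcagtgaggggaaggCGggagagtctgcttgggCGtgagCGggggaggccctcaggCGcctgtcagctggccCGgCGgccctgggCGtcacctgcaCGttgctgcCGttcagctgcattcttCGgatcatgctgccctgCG
Fasn, contig 3676356: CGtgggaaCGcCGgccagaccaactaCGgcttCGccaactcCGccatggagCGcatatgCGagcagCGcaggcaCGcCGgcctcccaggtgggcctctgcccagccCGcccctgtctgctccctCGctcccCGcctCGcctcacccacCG
mt-Co1, contig 2052417: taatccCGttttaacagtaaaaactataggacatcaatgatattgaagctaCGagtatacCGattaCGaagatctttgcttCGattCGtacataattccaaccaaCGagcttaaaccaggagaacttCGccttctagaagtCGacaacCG
The windows hold 13 CpG in Vps52, 13 in Lrp1, 16 in Fasn and 10 in mt-Co1, and the repeat contigs hold 5, 2 and 3 in the order printed.

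Members were long contigs with many CpG sites. Their median length was 1634 bases, against 1261 in the next 1% and 442 over all contigs. The median member held 48 CpG dinucleotides, against 35 in the next 1% and 9 over all contigs. CpG density also differed, with a median of 2.94 per 100 bases in members, 2.76 in the next 1% and 2.16 over all contigs. A count over a contig grows with its length, so the length of the members follows in part from the rule and no test applies.

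**Figure D1:**
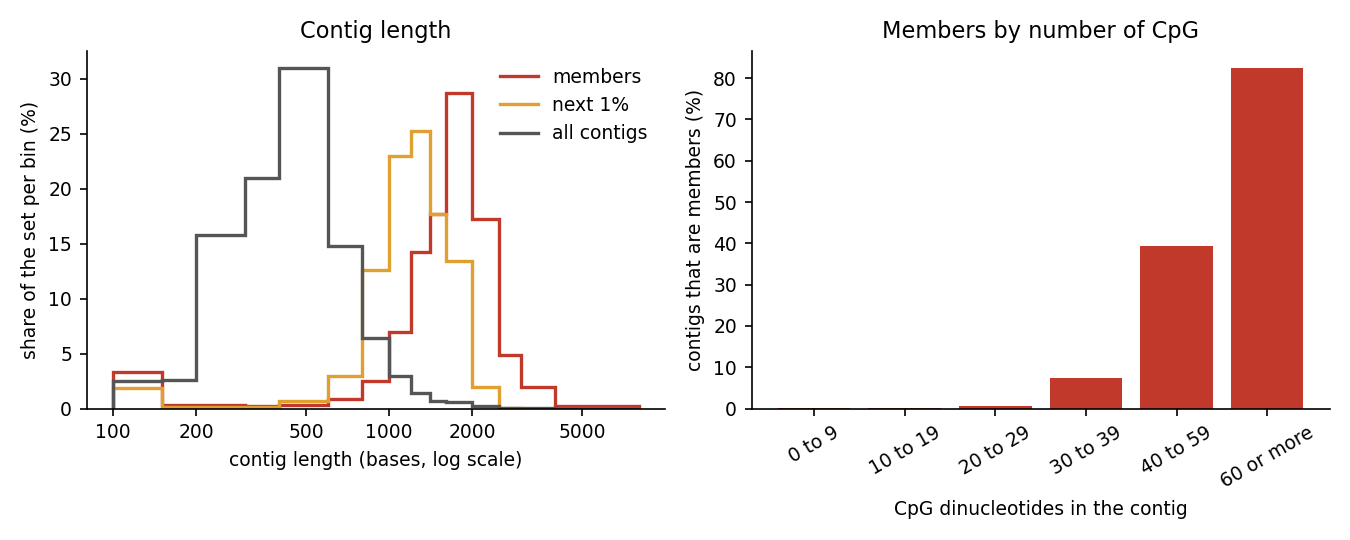
Left, share of members, of the next 1% by rank and of all contigs in each bin of contig length (bases, log scale; bins of unequal width). Right, percentage of contigs that are members by number of CpG dinucleotides. Members peak above the other sets in length with a small second peak at 150 bases or shorter, and 82.5% of contigs with 60 or more CpG are members.

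Most of the longest and of the CpG-richest contigs were members. Of the contigs longer than 2000 bases, 88.4% were members, and of those over 1200 and up to 2000 bases 22.6% were. Within that second class members had 2.94 CpG per 100 bases and a GC content of 53.2%. The 11350 contigs of the class that were not members had 2.31 per 100 bases and 49.2%. Length was not matched there. At 1200 to 1400 bases 779 of 7736 contigs were members, and at 1600 to 2000 bases 1574 of 3085 were. Of contigs over 600 and up to 1200 bases 0.436% were members, with 3.15 CpG per 100 bases against 2.13 in the rest of that class. Sorted by CpG number, the share of members was 0.536% at 20 to 29 CpG, 7.51% at 30 to 39, 39.3% at 40 to 59 and 82.5% at 60 or more. A dense cluster of CpG of the island type was uncommon, since 114 members (2.08%) had both a GC content of at least 50% and an observed over expected CpG ratio of at least 0.6. The median observed over expected ratio was 0.426 in members and 0.383 over all contigs. A single member held no CpG.

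A mouse match was listed for 3918 members (71.5%), against 66.4% in the next 1% and 38% over all contigs, and 58.5% of members had a match of at least 100 aligned bases. The match covered at least 50% of the contig in 1280 members (23.4%), against 24.8% in the next 1% and 18.6% over all contigs. By that match 2797 members (51.0%) lay inside a mouse gene, 108 lay outside but within 2000 bases of one, and 1006 lay farther away. Over 1200 and up to 2000 bases, 73.7% of members and 69.0% of other contigs had a match. Inside a gene lay 53.0% of these members and 41.7% of the others, and the members of this class were the longer contigs. Mouse positions are those of the deposited table, with the mouse build not given in the sources used here, and the place of a match within exons, introns or UTRs was not analysed here.

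Members were spread over all mouse autosomes and X, with uneven density. Among matched contigs longer than 600 bases, 4.80% were members. On mouse chromosome 17 it was 7.13%, the highest of the autosomes, followed by chromosome 15 with 6.35% and chromosome 19 with 6.11%. The lowest autosomes were chromosome 3 with 3.44% and chromosome 13 with 3.58%, and chromosome X had 3.01%. The sex chromosomes differ from autosomes in copy number in males. Length, CpG number and GC content were not matched between chromosomes, and what underlies these shares was not tested. Of the 4 contigs longer than 600 bases that matched the mitochondrial genome, 3 were members.

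The member contigs touched 2201 mouse genes, 11.64% of the 18910 genes with any contig inside. Of these genes 1833 held 1 member, 249 held 2 and 119 held 3 or more. The symbols of 1726 of them (78.4%) also stand in the RefSeq annotation of the sand rat assembly mPsaObe1. Gene names rest on similarity to mouse, since the contigs themselves carry no sand rat annotation.

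The genes with the most members held many contigs, from 25 to 377, against a median of 4 over all genes with a contig. Gm13938, a gene model whose mouse position overlaps that of Ttn, held 14 members among its 47 contigs, and Ttn, which encodes the giant muscle protein titin, held 8 among 103. Their contigs thus come from neighbouring parts of the same locus. Gm20388 held 8 members among 377 contigs. Dock9, which encodes an activator of the small GTPase Cdc42, held 7 among 30, and Myo7a, which encodes an unconventional myosin of sensory hair cells, held 7 among 27. Dip2b held 7 among 25 and Sdk1, which encodes a cell adhesion molecule of the immunoglobulin superfamily, held 7 among 158. Pard3, which encodes a cell polarity scaffold, held 6 among 76, Dopey2 held 6 among 27 and the ETS transcription factor gene Erg held 6 among 31. In 9 of these 10 genes the median log2 fold change of the members, standard-low over low-low, lay between -0.20 and -0.07, and Pard3 had 0.05. Sums over genes are in CPM, here counts per 1e6 of the library total multiplied by its TMM factor, a scaling that centres log ratios between libraries. The members of Gm13938 summed to 136, 131, 138 and 131 CPM in standard-low libraries 1 to 4. In low-low libraries 1 to 4 they summed to 139, 159.5, 142 and 157 CPM. Those of Ttn summed to 69.3, 69.8, 75.5 and 70.6 CPM in standard-low, against 77.4, 81.9, 75.8 and 88.0 CPM in low-low. At this locus every standard-low library lay below every low-low library in both sums, by little between the nearest libraries, and no single member there passed the edgeR test described below. The sums come from overlapping mouse positions, so they do not stand for separate loci. How many of all genes have sums that separate in this way was not worked out. Single contigs did so at 4.69% of members and 1.61% of all contigs. The members of Pard3 summed to 63.7, 65.6, 64.6 and 67.4 CPM in standard-low libraries 1 to 4, against 63.9, 66.3, 64.1 and 61.3 CPM in low-low libraries 1 to 4. Those of Myo7a summed to 56.4, 43.6, 64.7 and 53.7 CPM in standard-low, against 61.3, 60.8, 62.0 and 62.8 CPM in low-low. The groups overlapped in Pard3, in Myo7a and in the sums of the other 6 genes, and the lowest Myo7a value was that of standard-low 2.

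The single members with the highest counts were of very different kinds. For single contigs, as for the gene sums above, the library total was first multiplied by its TMM factor. Values called CPM of the library total leave this factor out. Contig 1472923, the 37-base repeat printed above, had 66.1, 111, 114 and 103 CPM in standard-low libraries 1 to 4, against 56.2, 86.1, 81.4 and 97.4 CPM in low-low libraries 1 to 4. Library 1 of each group was the lowest and the groups overlapped. Contig 3954701, a repeat of the same period, had rank 4, and contigs 2764716 and 3555381 of the 127-base family had ranks 3 and 7. Each of these was 100 or 101 bases long, and per length contig 1472923 reached 894 CPM per kilobase, against 5.93 for the longest member, contig 3174951.

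Among long members the highest was contig 3174951, which matched Vps52 on mouse chromosome 17, 33958574 to 33959436, with 909 aligned bases. Vps52 encodes a subunit of the GARP complex, which tethers vesicles returning to the trans-Golgi network. With 7206 bases it was the longest contig of the whole table, and it held 257 CpG. It had 40.4, 30.1, 52.9 and 35.1 CPM in standard-low, against 43.5, 45.3, 49.5 and 44.8 CPM in low-low. Standard-low 3 was the highest and standard-low 2 the lowest of all 8, so the low-low values lay within the range of the standard-low values. The mean was 39.6 ± 9.79 CPM in standard-low and 45.8 ± 2.60 CPM in low-low (SD, n = 4 each), which did not pass the test (log2 fold change -0.21, edgeR adjusted p = 0.896). Without standard-low 2 the log2 fold change was -0.10.

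Contig 3429685 matched Lrp1, a large endocytic receptor for lipoproteins carrying apolipoprotein E, on mouse chromosome 10, 127552700 to 127553946, with 1288 aligned bases. The contig itself has 5032 bases with 177 CpG. It had 32.4, 17.5, 37.5 and 29.999 CPM in standard-low, against 32.9, 34.6, 39.3 and 34.9 CPM in low-low. Standard-low 2 was again far below the other libraries. The log2 fold change was -0.27 (edgeR adjusted p = 0.867), and -0.09 without standard-low 2. Contigs 4137909 and 45853, both without a mouse match, completed the 10 highest with contig 2839095 of the mitochondrial genome and the unmatched contig 1324036, which are described with the group comparison. Contig 2502251 in Ets2, an ETS transcription factor gene, had rank 16 with 4793 bases, and was named after its values were seen.

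Of 34 genes of lipid and cholesterol metabolism with a contig inside, 13 (38.2%) held a member, beside 11.64% of all genes with a contig and 38.5% of the genes of voltage-gated calcium and sodium channels. The list held 27 members, 6.19% of its 436 contigs, all of which lay inside genes. Of all contigs inside a mouse gene 2797 of 125082 were members, and of all contigs 1%. Genes with a member had a median of 9 contigs inside, against 4 over all genes with a contig. The list was not matched for contigs per gene. They included Lrp1, Lrp5, Lrp8, Fasn, Acacb, Cpt1a, Cpt1c, Cpt2, Acadm, Ppard, Abca1 and Abcg1, which cover lipoprotein receptors, fatty acid synthesis, mitochondrial fatty acid oxidation, a nuclear receptor and cholesterol efflux. Lrp1 and Fasn had 5 members each and Lrp5 had 3. No member of the list passed the test, 26 of 27 had a value below 0 and the median log2 fold change was -0.19, beside -0.11 over all members and 0.00 over all contigs. Without standard-low 2 the list's median was -0.09 and 20 of 27 lay below 0. The median GC content of these 27 contigs was 56.6%.

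Fasn encodes fatty acid synthase, the enzyme that builds palmitate. Its highest member, contig 3676356, held 171 CpG over 3535 bases at a GC content of 63.8%, and was singled out for printing after its values were seen. It had 23.5, 14.3, 31.3 and 19.7 CPM in standard-low, against 22.5, 24.8, 26.2 and 22.7 CPM in low-low. The standard-low values enclosed all low-low values, and the log2 fold change of -0.11 (edgeR adjusted p = 0.959) was 0.05 without standard-low 2.

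The other lists held fewer members, and none of their members passed the test. Among genes of the DNA methylation machinery, 6 of 19 held a member. These were the maintenance methyltransferase gene Dnmt1, its partner Uhrf1, the hydroxylase genes Tet1 and Tet3, and the methyl-CpG binding protein genes Mbd1 and Mbd3. All 7 members of that list had a log2 fold change below 0, with a median of -0.15, and 5 of 7 did without standard-low 2, with a median of -0.05. Contig 1021317 in Mbd1 averaged 9.25 ± 1.07 CPM in standard-low and 10.2 ± 1.06 CPM in low-low (SD, n = 4 each), with overlapping libraries.

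Appetite genes were represented by 4 members in 4 of 27 genes. They lay in the leptin receptor gene Lepr, the melanin-concentrating hormone receptor gene Mchr1, the neuropeptide Y receptor gene Npy2r and the neurotrophin receptor gene Ntrk2. In Mchr1, contig 3767816 had 8.56, 5.90, 7.29 and 5.58 CPM in standard-low, against 6.57, 8.10, 9.47 and 8.06 CPM in low-low. In Lepr, contig 62071 had 7.53, 5.82, 7.96 and 8.79 CPM in standard-low, against 6.19, 6.31, 8.19 and 6.99 CPM in low-low. The means lay in opposite directions and the libraries of both contigs overlapped between the groups.

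Insulin signalling genes held 5 members, in Akt1, Foxo3, Mtor, Pik3cb and Rptor, out of 27 genes with a contig. In Akt1, which encodes a kinase downstream of the insulin receptor, contig 3617832 had 7.27, 5.06, 8.12 and 7.61 CPM in standard-low, against 9.01, 8.25, 8.27 and 8.22 CPM in low-low. Every standard-low library lay below every low-low library there, as at 4.69% of all members and 1.61% of all contigs. The log2 fold change of -0.27 did not pass (edgeR adjusted p = 0.894). It was -0.14 without standard-low 2 and -0.12 with library offsets for GC content. Akt1 was named after its values were seen, and the groups overlapped in Foxo3, Mtor, Pik3cb and Rptor. The highest member of this list, contig 2294885 in Pik3cb, averaged 13.2 ± 4.60 CPM in standard-low and 15.6 ± 1.02 CPM in low-low (SD, n = 4 each). Imprinted genes held 4 members in 4 of 27 genes, namely Cdkn1c, Peg10, Rtl1 and Airn. The remaining lists gave 10 of 26 genes for voltage-gated calcium and sodium channels, 6 of 22 for voltage-gated potassium channels, 13 of 51 for axon guidance, 7 of 25 for synaptic scaffolds and adhesion, 5 of 39 for glutamate and GABA receptors and 1 of 10, Mtus2, for the neighbourhood of the ParaHox genes on mouse chromosome 5. Among markers of cell types with a contig inside, 1 of 5 held a member for neurons (Rbfox3) and 1 of 5 for oligodendrocytes (Mbp). For endothelium it was 1 of 4 (Kdr), and for astrocytes, microglia, pituitary and blood none. Beside these short lists, 11.64% of all genes with a contig held a member. A captured contig in such a gene does not say which cells the DNA came from.

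Genes of neuronal signalling held long members as well. Homer2 encodes a postsynaptic scaffold that links glutamate receptors to calcium stores, and its contig 2488097, with 4130 bases and 181 CpG, had rank 34. It had 22.8, 16.7, 21.6 and 18.3 CPM in standard-low, against 21.5, 23.5, 20.9 and 24.96 CPM in low-low. The lowest libraries were standard-low 2 and 4, and the groups overlapped (log2 fold change -0.19, edgeR adjusted p = 0.908, and -0.12 without standard-low 2). Cacna1a encodes the pore of P/Q-type calcium channels, which trigger transmitter release. Its contig 1780642, of 3277 bases with 101 CpG, averaged 12.3 ± 1.44 CPM in standard-low and 12.7 ± 1.13 CPM in low-low (SD, n = 4 each). Kcnh1 encodes a voltage-gated potassium channel, and its contig 10258 averaged 13.4 ± 3.12 CPM in standard-low and 14.2 ± 0.385 CPM in low-low (SD, n = 4 each). Its low-low libraries lay close together while standard-low 2 had 9.70 and standard-low 3 had 16.3 CPM. Gria4 encodes a subunit of AMPA receptors, and its contig 1615448 averaged 12.4 ± 2.08 CPM in standard-low and 14.2 ± 1.82 CPM in low-low (SD, n = 4 each). In Mbp, which encodes myelin basic protein, contig 4184378 had 8.81, 8.43, 9.03 and 9.80 CPM in standard-low, against 13.52, 10.5, 10.6 and 9.37 CPM in low-low, and did not pass (edgeR adjusted p = 0.871).

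Short repeats formed the other end of the set. Of the 184 members of 150 bases or shorter, 120 belonged to one of 2 repeat families. The family of tandem repeats with a unit of about 37 bases gave 70 members, 68 of them short, out of 3546 contigs of that family in the table. The second family gave 63 members, 52 of them short, out of 2033 contigs. It was defined after the data were seen, as contigs that share at least 5 runs of 15 bases with the largest group of related short members outside the 37-base family. Its unit showed in the long contigs of the family, of which 92 of 129 longer than 600 bases matched themselves best at a shift of 125 to 129 bases, and all 9 members of that length did so at 127 bases with 46.7% to 58.5% of bases identical. Among the other members longer than 600 bases, 4.78% had their best shift in that window. Of the 64 short members in neither family, 9 had a mouse match.

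Summed over its members, the 37-base family had 662, 914, 874 and 867 CPM of the library total in standard-low, against 614, 833, 807 and 851 CPM in low-low. Library 1 of both groups was the lowest. The 127-base family had 691, 978, 736 and 774 CPM in standard-low, against 676, 864, 730 and 873 CPM in low-low, where standard-low 2 was the highest of the 8. The groups overlapped in both families, and the members were divided over both directions, with 40 of 70 and 34 of 63 above 0.

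The share of all counts that fell in members was 4.94%, 4.44%, 5.24% and 4.85% in standard-low libraries 1 to 4, against 5.09%, 5.21%, 5.25% and 5.21% in low-low libraries 1 to 4. The mean share was 4.87% ± 0.330 in standard-low and 5.19% ± 0.0682 in low-low (SD, n = 4 each). Standard-low 3 reached the level of the low-low libraries, the other 3 standard-low libraries lay below all of them, and the ratio of group means was 0.938. Members were chosen on these counts, so no test is given.

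How far a library departed depended on the GC content of the contigs. Members were divided into 5 classes of equal size by GC content. The summed CPM of the library total in each class was divided by its mean over the 8 libraries. Standard-low 2 had 1.03, 0.937, 0.879, 0.820 and 0.759 in the classes from low to high GC. Standard-low 4 also declined, to 0.904 in the highest class, while standard-low 3 had 1.13 and low-low 3 had 1.10 there. The remaining libraries stayed between 0.994 and 1.053 in that class.

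**Figure D2:**
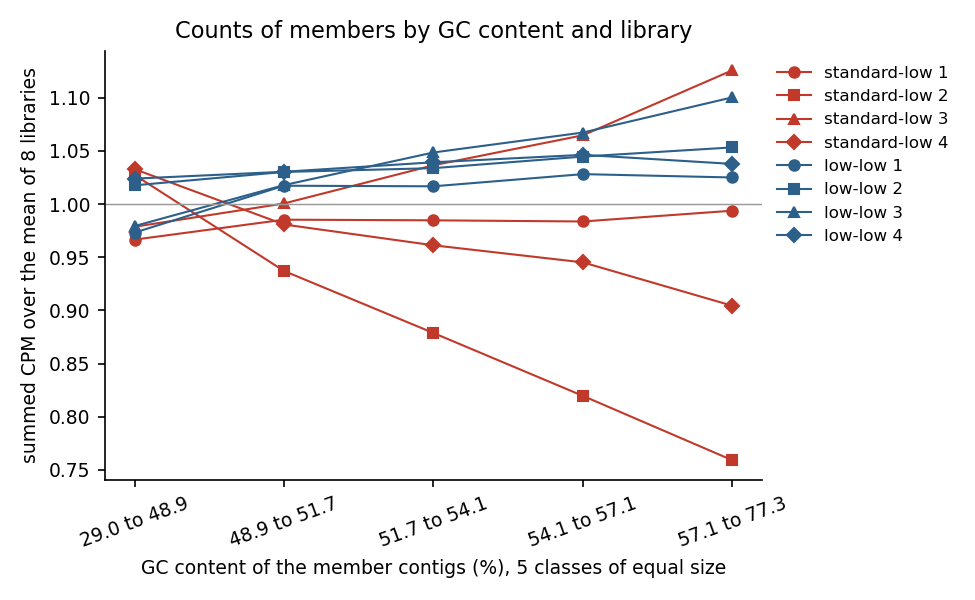
Summed CPM of the library total for members in 5 classes of GC content (x axis, percent GC), divided by the mean over the 8 libraries. Each line is 1 library, red for standard-low and blue for low-low. In the class of highest GC, standard-low 2 lies at 0.759 and standard-low 3 at 1.13, and the 8 libraries lie closest together in the class of lowest GC.

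Standard-low 2 was the lowest of the 8 libraries at 2575 members (47.0%). At 728 members it lay at least 1.5 times below the median of the other 7 libraries, and these had a median GC content of 57.5%. Between 10 and 52 members met that threshold in each of the other libraries. Ranked on its own counts, standard-low 2 shared 3890 (71.0%) of its top 1% with the members, while the other libraries shared between 4412 and 4595. With it left out of the average, 5283 of the 5481 members stayed in the top 1%.

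Between the groups, most members had slightly lower values in standard-low. The log2 fold change was below 0 at 4363 members (79.6%), against 72.4% in the next 1% and 49.7% over all contigs. Its median was -0.11 in members, -0.09 in the next 1% and 0.00 over all contigs. Without standard-low 2 the median of the members was -0.06 with 3806 of 5481 below 0, and with library offsets for GC content, added after the data were seen, it was -0.06 with 3740 below 0. The median over all contigs was then 0.00 and 0.01. From the lowest to the highest GC class the median log2 fold change was -0.04, -0.08, -0.12, -0.15 and -0.18, and the number of members below 0 was 688, 801, 895, 986 and 993 out of about 1096 each.

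**Figure D3:**
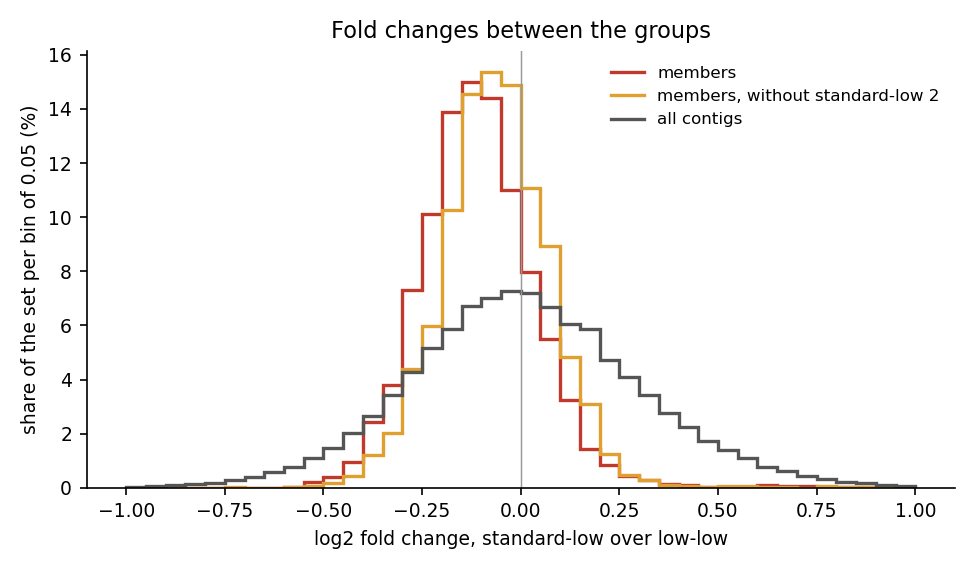
Distribution of the log2 fold change, standard-low over low-low, in bins of 0.05, for members, for members without standard-low 2, and for all contigs. The members lie left of 0 with a median of -0.11, the median without standard-low 2 is -0.06, and that of all contigs is 0.00.

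Every standard-low library lay below every low-low library at 257 members (4.69%), and above at 21 (0.383%). In the next 1% these shares were 3.52% below and 0.511% above, and over all contigs tested 1.61% and 1.63%. In the edgeR quasi-likelihood test 569 members had an unadjusted p under 0.05, 514 of them lower and 55 higher in standard-low. This is 10.4%, beside 7.94% of the next 1%, with 400 lower and 35 higher, and 5.68% of all contigs. With GC offsets 444 members had an unadjusted p under 0.05, and without standard-low 2 397 did. Leaving out single libraries gave between 379 members without low-low 3 and 1245 without standard-low 3.

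After Benjamini-Hochberg adjustment over all 548060 contigs, 9 members (0.164%) passed a threshold of 0.05, beside 4 (0.073%) of the next 1% and 0.0268% of all contigs. Of the 9 members, 8 were higher in standard-low, beside 0.0203% of all contigs, and 1 was lower, beside 0.00657%. The lower one was a member only through its low-low counts, as described below. The 9 were a pair of contigs of 101 and 102 bases, 2 contigs with a mitochondrial match, 4 unmatched contigs and 1 contig of the 127-base family. At all 9 the libraries of the groups overlapped. The edgeR fit lends each contig the spread common to contigs of its abundance, with a weight of 81 degrees of freedom beside 6 of its own, and all 9 varied more than most. Their coefficient of variation within standard-low was 28.4% to 66.8%, beside 3.96% to 10.6% from counting error. With a robust estimate of that common spread, added after the data were seen, in which such contigs are tested mainly on their own spread, 0 members and 80 contigs of the table passed, with 572 members at an unadjusted p under 0.05. With DESeq2 0 members passed as well, with 379 at an unadjusted p under 0.05, and with limma voom 6 did.

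**Figure D4:**
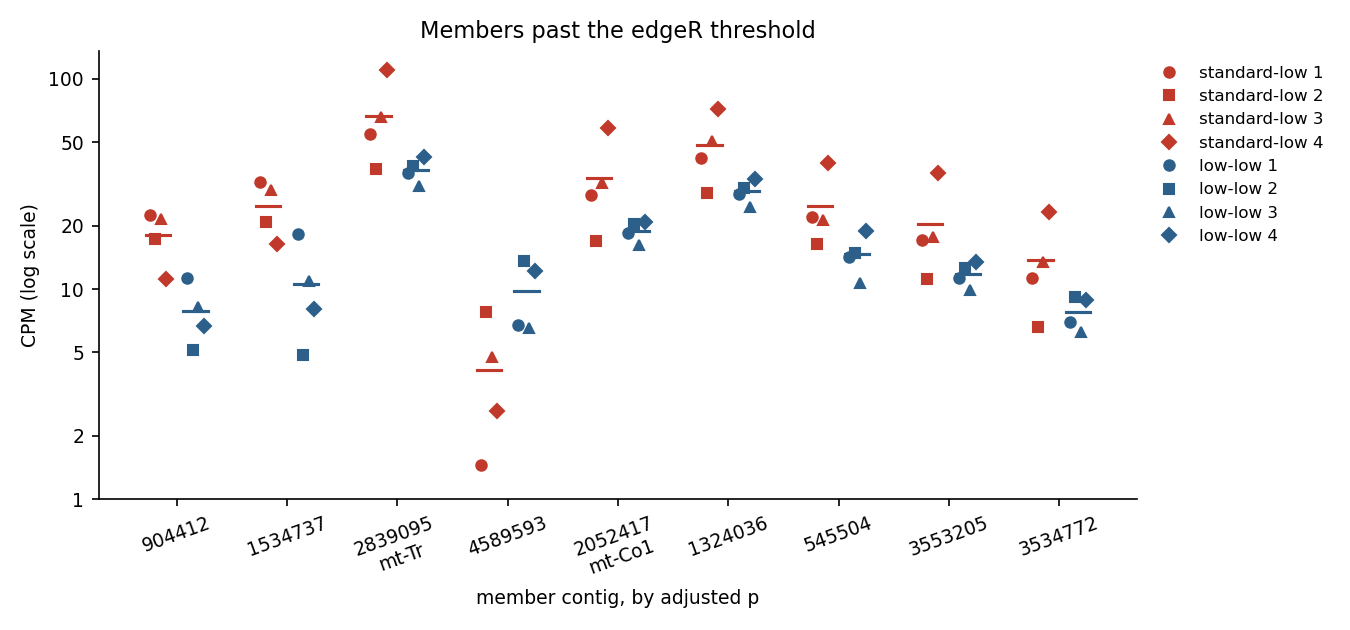
CPM (log scale) in each library for the 9 members past the edgeR threshold, ordered by adjusted p; red points are standard-low and blue points low-low, with a bar at each group mean. The groups overlap at every contig, and standard-low 4 is the highest library at 2839095, 2052417, 1324036, 545504, 3553205 and 3534772.

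Contig 904412, of 102 bases with 6 CpG and no mouse match, had 22.4, 17.3, 21.5 and 11.2 CPM in standard-low, against 11.3, 5.13, 8.19 and 6.68 CPM in low-low. By eye, this contig and contig 1534737 resemble a repeat of primates, and whether they are sand rat DNA was not tested, so their values carry that doubt. At contig 904412 only standard-low 4 fell among the low-low values, just below low-low 1. The mean was 18.1 ± 5.13 CPM in standard-low and 7.83 ± 2.64 CPM in low-low (SD, n = 4 each), a 2.31-fold difference of means with an edgeR adjusted p of 3.82e-07, against 0.688 with the robust spread, and an exact two-sided permutation p of 0.0571. The smallest p that 4 against 4 libraries can give is 0.0286.

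Contig 1534737, of 101 bases with 1 CpG, had 32.3, 20.9, 29.5 and 16.4 CPM in standard-low, against 18.3, 4.83, 10.9 and 8.06 CPM in low-low. Again only standard-low 4 lay below low-low 1, and low-low 2 was the lowest at both contigs. The nearest mouse gene, Ptprj, was 45704 bases away and the match covered 52 bases, so the contig has no firm gene. Its means of 24.8 ± 7.38 CPM in standard-low and 10.5 ± 5.76 CPM in low-low (SD, n = 4 each) gave an edgeR adjusted p of 2.95e-06, against 0.849 with the robust spread. These were the only called members to pass without standard-low 4.

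The 4 members matched to the mouse mitochondrial genome included contig 2839095, nearest to the tRNA gene mt-Tr, and contig 2052417, matched to the cytochrome c oxidase subunit gene mt-Co1. Contig 2839095, with 2371 bases and 37 CpG the second highest member, had 54.5, 37.4, 66.1 and 110 CPM in standard-low, against 35.7, 38.5, 30.9 and 42.5 CPM in low-low. Standard-low 4 stood far above the rest and standard-low 2 lay among the low-low libraries. The log2 fold change was 0.86 (edgeR adjusted p = 4.16e-04, or 0.870 with the robust spread), and 0.51 without standard-low 4, where it did not pass (edgeR adjusted p = 0.463). Contig 2052417 had 28.0, 16.95, 31.8 and 58.5 CPM in standard-low, against 18.4, 20.3, 16.1 and 20.7 CPM in low-low, with a log2 fold change of 0.84 (edgeR adjusted p = 0.00355, or 0.887 with the robust spread) that was 0.44 without standard-low 4. Contig 3305951 in mt-Co3 was also highest in standard-low 4, at 8.56, 5.99, 9.53 and 19.7 CPM in standard-low, against 6.34, 7.73, 5.54 and 7.22 CPM in low-low, and did not pass (edgeR adjusted p = 0.221). Summed over the 4, standard-low 4 had 225 CPM of the library total beside 108, 73.9 and 127 in standard-low 1 to 3, against 73.2, 81.7, 63.6 and 86.4 CPM in low-low 1 to 4. More mitochondrial DNA in a library and more methylation of it cannot be told apart without input.

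Some unmatched members were high in standard-low 4 as well. In standard-low 4, 18 members reached at least 1.5 times the median of the other 7 libraries. Of these, 4 were the mitochondrial matches and 9 were unmatched contigs longer than 300 bases, with 33.8% to 41.5% GC, beside 33.0% to 36.2% in the mitochondrial matches. In 7 of the 9 the longest open reading frame was longer when read with the vertebrate mitochondrial code than with the standard code, as it was in all 4 matched ones. The same held for 4 of the remaining 5 members high in standard-low 4, which include 37-base repeats, so the direction alone did not set the 9 apart. The size of the difference was unlike. In the 9 the longest frame covered a median of 85.6% of the contig with the mitochondrial code and 49.6% with the standard code. In the 5 it covered 84.1% and 79.7%, and in the 4 mitochondrial matches 63.8% and 20.6%. The 9 were mixed. Contig 3573372 had 98.7% with both codes, contig 3330612 60.2% and 89.0%, and contig 3554782 31.9% and 28.4%. Contigs 3573372 and 3330612 averaged 5.58 and 6.81 CPM in low-low, below the 6.93 CPM of the last member over the 8 libraries. The 5 had 751 bases in total, beside 6164 in the 9, and the origin of either set was not tested. The 9 summed to 314 CPM of the library total in standard-low 4 beside 165, 120 and 192 in standard-low 1 to 3. In low-low 1 to 4 they summed to 117, 130, 101 and 142. The libraries of this sum stood in the same order as those of the summed mitochondrial matches, but single contigs differed. Contig 3330612, which belongs to the 127-base family, had 6.42, 8.52, 7.29 and 11.3 CPM in standard-low, against 7.10, 6.54, 6.98 and 6.60 CPM in low-low, with standard-low 2 above standard-low 1 and 3. Contig 1324036, the sixth highest member, is the largest of the 9 by count, with 48.3 ± 18.01 CPM in standard-low and 29.2 ± 3.77 CPM in low-low (SD, n = 4 each; edgeR adjusted p = 0.00462, or 0.853 with the robust spread). Contigs 545504, 3553205 and 3534772 also passed, with edgeR adjusted p of 0.00974, 0.0187 and 0.0385, and none of the 4 passed without standard-low 4.

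Contig 4589593 of the 127-base family, 196 bases long, was the only called member with lower values in standard-low. It had rank 5469 of 5481, with means of 4.14 CPM in standard-low and 9.76 CPM in low-low. The last member averaged 6.93 CPM over the 8 libraries. This contig was thus a member only through its low-low counts, and its direction is tied to the rule. Ranked by the median share it was not a member, and 8 members were called. Contig 4589593 had 1.45, 7.76, 4.72 and 2.62 CPM in standard-low, against 6.72, 13.6, 6.502 and 12.2 CPM in low-low. Standard-low 2 lay above low-low 1 and 3, and the other 3 standard-low libraries lay below all low-low libraries. The log2 fold change was -1.24 (edgeR adjusted p = 4.33e-04, or 0.878 with the robust spread, exact two-sided permutation p = 0.0857). The other members of that family gave no common direction, with 29 of its 63 members below 0 in all.

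Another set of members was low in low-low 4. At 42 members low-low 4 lay at least 1.5 times below the median of the other 7 libraries, and they were CpG-dense, with a median of 7.92 CpG per 100 bases and 59.5% GC. All 7 members nearest to AY036118 on mouse chromosome 17 were among them, as were both members in Lars2 on chromosome 9 and both near AC137844.2 on chromosome 3. The called contigs 904412 and 1534737 also belonged to the 42. Without low-low 4 their log2 fold changes were 1.14 and 1.13, and both still passed (edgeR adjusted p = 8.43e-05 and 6.70e-04). AY036118 and Lars2 are places in the mouse genome where sequence of ribosomal RNA genes is annotated or embedded. The 7 members nearest to AY036118 summed to 128, 130, 99.1 and 102 CPM of the library total in standard-low libraries 1 to 4, against 123, 110, 113 and 54.7 CPM in low-low libraries 1 to 4. Their longest contig, 1710872, had 15.3, 17.3, 13.8 and 13.4 CPM in standard-low, against 15.4, 15.8, 17.1 and 8.14 CPM in low-low. None of the 7 passed the test between the groups.

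**Figure D5:**
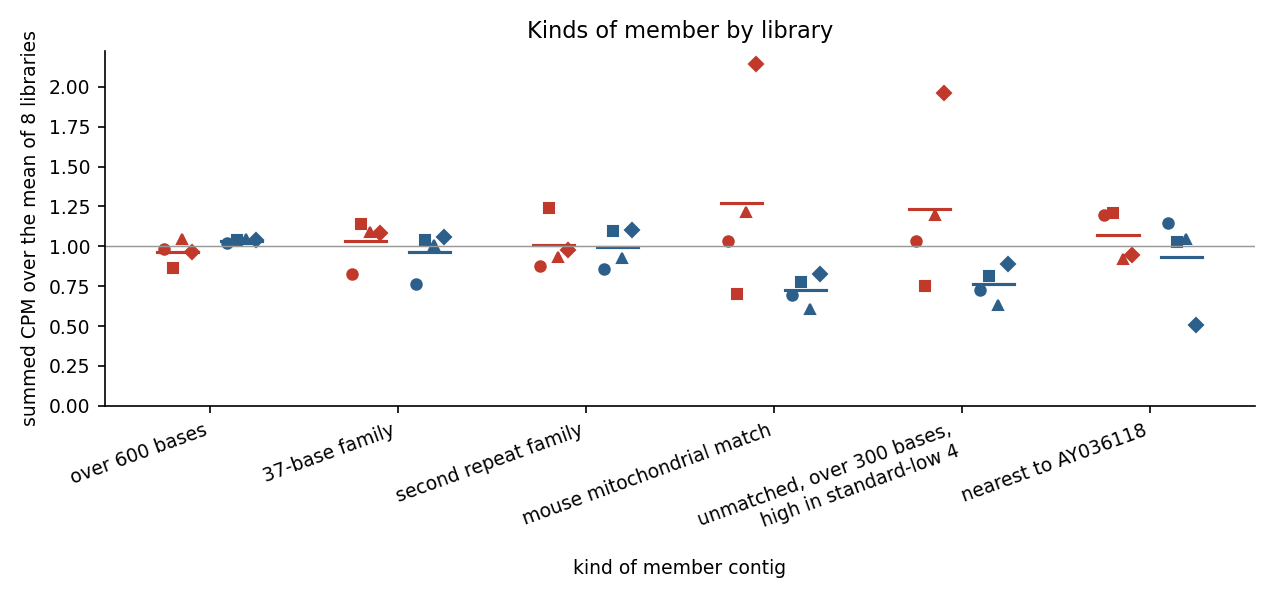
Summed CPM of the library total for 6 kinds of member in each library, divided by the mean over the 8 libraries. Red points are standard-low, blue points low-low, and bars are group means (the second repeat family is the one with the 127-base shift). Standard-low 4 is highest for the mitochondrial matches and for the unmatched contigs chosen for being high in that library, and low-low 4 is lowest for the members nearest to AY036118, for which it was picked out.

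Members longer than 600 bases had a lower median coefficient of variation between libraries than short members in both groups. Their median coefficient of variation was 14.3% in standard-low, 11.1% in standard-low without library 2 and 9.63% in low-low, beside 9.85% from counting error. Members of 150 bases or shorter had 18.4% in standard-low and 21.0% in low-low, beside 9.16% from counting. The members that varied most over the 8 libraries included short repeats and contigs with a mitochondrial match. Contig 175809, of 101 bases, had 5.56, 20.7, 6.46 and 6.34 CPM in standard-low, against 3.51, 19.98, 6.98 and 15.5 CPM in low-low, so high values occurred in both groups. Contig 2222144, a 37-base repeat, had 6.42, 14.1, 11.5 and 13.0 CPM in standard-low, against 10.1, 1.56, 1.69 and 14.9 CPM in low-low. Low-low 2 and 3 held far fewer counts there than the other 6 libraries.

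The members closest to the threshold looked like the contigs just below it. The last 3 inside were contigs 3746646 in Ppard, 815918 in Glt25d2 and 1155840 in A230108P19Rik, with 6.76, 6.44 and 6.78 CPM in standard-low and 7.13, 7.44 and 7.09 CPM in low-low. The first 3 outside were contigs 4136678 in C130039O16Rik, 3064555 in Kdm2a and 1641688 in Plxnb2, with 6.91, 6.59 and 6.67 CPM in standard-low and 6.96, 7.29 and 7.21 CPM in low-low. Plxnb2, a receptor of semaphorins, also held contig 1670141 well inside, with 14.98 CPM in standard-low and 18.02 CPM in low-low, at 2343 bases against 938 for the contig outside.

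Ranking by share per kilobase in place of the share gave almost another set. Of its 5481 contigs, 274 (4.999%) were among the members. Its median length was 101 bases, 5.13% had a mouse match and 2.70% lay inside a mouse gene. The gene content described above is therefore that of long contigs with many CpG sites.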

How the data were processed

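Captured DNA of 8 hypothalamus libraries was measured as read counts per assembled contig. The authors deposited whole-number counts, unscaled, with each contig's sequence and, for some contigs, a mouse match and the nearest mouse gene. Per the submitters' processing notes FastQC and BWA were used, without versions. Assembler and mouse build are not given here. How reads that map to several repeat copies were treated is also not stated, so values of repeat contigs are uncertain. Columns were matched to libraries by the order of the header names. Per the file itself, the lowest mean count was 10.1, so only contigs above some minimum are listed.

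Members were the 5481 contigs with the highest mean share. They, the 11 gene lists and the tests were chosen with earlier results of these data known. The test was that of edgeR 4.0.16 under R 4.3.3 (TMM, default settings of glmQLFit, two-sided glmQLFTest, Benjamini-Hochberg over all contigs, threshold 0.05). A minimum mean of 10 counts removed 0 contigs. Alternatives were DESeq2 1.42.0, limma voom 3.58.1, other scalings and filters, a replicate block, GC offsets in 20 classes, a robust spread, other member rules and leaving out each library. Tandem repeats had at least 50% of bases repeating at a period of at most 60 bases with 75% identity. Named contigs were the 10 highest members, every called member, the highest in each list, the 3 on each side of the threshold, the 10 most variable, and the 10 genes with the most members. Others named were chosen after their values were seen. Intervals of counting error cover counting only.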

Additional observations from a re-analysis of the deposited data

Results flagged for a closer look

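In 3 of 80 groups of 4 libraries examined, over kinds of member and named contigs, 1 library lay so far from the nearest of the others that the gap, as a part of the group's range, exceeded Dixon's critical value. Chance alone flags about 1 group in 20. Contig 2764716 of the 127-base family had 56.8 CPM in standard-low 2, above the 46.1, 47.3 and 46.9 CPM of the other standard-low libraries, while low-low 4 reached 58.2 CPM. Contig 3954701, a 37-base repeat, had 30.6 CPM in low-low 1, below the 42.1, 41.6 and 41.4 CPM of the other low-low libraries. Contig 4653381 in Peg10, an imprinted gene derived from a retrotransposon, had 10.5 CPM in standard-low 2, above the 8.39, 8.45 and 8.28 CPM of the other standard-low libraries. At this last contig, of 1732 bases and 54.8% GC, standard-low 2 was high although it was low at most GC-rich members.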

How the results depend on the processing

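The number of members called was 9 in the main edgeR test. It was 0 with DESeq2 (379 at an unadjusted p under 0.05), 0 with the robust spread added later (572 at an unadjusted p under 0.05), 15 with the replicate block and 75 among contigs ranked by share per kilobase, and 2 to 19 without single libraries. The lowest of these counts was without standard-low 4, and it was 4 without low-low 2 or low-low 3, 15 without standard-low 2 and 19 without standard-low 3. Over all contigs 147 were called, 32 with DESeq2, 50 with limma voom, 81 with a filter at a mean of 20 counts, 80 with the robust spread, 206 with the replicate block, and 64 to 201 without single libraries. The ratio of shares, 0.938, was 1.04 with the ranking per kilobase, whose contigs had a median length of 101 bases, 5.13% with a mouse match and 2.70% inside a gene, and 58.5% of members had a match of at least 100 bases. Ranking by the median share moved length, CpG density and matches by less than 5%. The sign turned, at contigs that passed no test, for contig 2764716 with GC offsets (-0.079) and over single libraries left out (-0.065 to 0.10), for contig 3555381 with GC offsets (-0.050) and over single libraries (-0.15 to 0.29), for contig 1780642 in Cacna1a without standard-low 2 (0.018; range -0.12 to 0.018), and for contig 10258 in Kcnh1 with GC offsets (0.051) and without standard-low 2 (0.039; range -0.20 to 0.039). The cause of these changes was not tested. Replicate numbers were not taken as pairs, since the labels do not say that the numbers pair the groups. Between libraries of the same number, deviations from the group means correlated at 0.01, 0.03, 0.03 and -0.01 over all contigs. Over members these correlations were 0.14, 0.11, 0.16 and 0.04. Libraries 1 to 3, but not 4, correlated best with their own number, a hint from the data and not from the design. Depth limits short and low contigs most, since a contig near the threshold holds about 86 counts per library.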
